A study of Mus musculus with 4 samples.

Results

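Replication licensing genes are the 10 genes Mcm2, Mcm3, Mcm4, Mcm5, Mcm6, Mcm7, Mcm10, Cdc6, Cdt1 and Gmnn, taken by their exact symbols from the 27998 genes of the count tables. Their RNA was followed in sorted LSK cells (Lin-Sca1+cKit+), the fraction of mouse bone marrow that holds blood stem cells and multipotent progenitors, by droplet sequencing of single cells. There were 2 control and 2 Nup358 knockout libraries, each made from 3 pooled marrows of mice aged 9 to 12 weeks, so that each genotype rested on 6 mice. Control mice were Nup358 fl/fl, called wild-type in the labels, and knockout mice were Nup358 fl/fl CreERT2. All mice carried the floxed allele, and tamoxifen was given on 3 consecutive days. CreERT2 was driven from the R26 locus, which is active across the body and not in blood cells alone. Nup358, encoded by Ranbp2, is a large protein on the cytoplasmic side of the nuclear pore. A library is a pool of separate mice, and the p-values between genotypes rest on the spread between the 4 libraries. Comparisons between sets of cells, fitted with the library as a block, instead use the spread left within the libraries.

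A chromosome must be copied once and only once in each cell cycle, and licensing is the step that makes this possible. In G1, Cdc6 and Cdt1 load the ring-shaped helicase built from Mcm2, Mcm3, Mcm4, Mcm5, Mcm6 and Mcm7 onto the origins of replication. In S phase the ring is switched on with help from Mcm10, while geminin, the product of Gmnn, binds Cdt1 and prevents loading again until the next cycle. Long-term stem cells of the marrow are mostly in a resting state, and leaving it involves building up the licensing proteins.

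The deposited tables held 25242 cell barcodes, of which 10936 (43.3%) repeated a sequence that was present in another library with 3 times as many UMIs or more. Sequences shared by libraries numbered 6680, and 1138 of them were found in all 4. The loss was uneven. Such copied barcodes made up 14.8% of control replicate 1, 81.8% of control replicate 2, 65.3% of knockout replicate 1 and 18.8% of knockout replicate 2. Their share of the UMIs was 2.01%, 24.6%, 8.58% and 1.61% in the same order. Copied barcodes were left out. The comparisons between genotypes and between gates were also computed with them, as were the stem-like low cells, but not the other gates split by cell cycle gate or the interaction terms within them. The 14041 cells kept were spread unevenly, with 7830 and 1200 cells in the control libraries (replicates 1 and 2) and 1589 and 3422 in the knockout libraries (likewise). They held 59033602, 18846887, 32736147 and 53844729 UMIs in that order, and control replicate 1 was the shallowest per cell, with a median of 6251 UMIs. A UMI marks 1 captured transcript end, so a count does not grow with transcript length, and levels are given as CPM, counts scaled to 1000000 UMIs of the same cells. Ranbp2 stood at 127.1 and 100.9 CPM in the control and 123.5 and 126.1 CPM in the knockout libraries (log2 difference 0.09, SE 0.15, adjusted p = 0.777 in edgeR). Exon 2 is the deleted part of the gene, and tags from the 3′ end do not check its loss. Control replicate 2 held 1347 CPM of haemoglobin RNA against 126.1 to 223.7 CPM in the others, and mature B cell genes summed to 1.20 and 2.44 CPM in control and 19.8 and 16.5 CPM in knockout libraries.

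The members lie on 8 chromosomes of build GRCm38, with positions from the GENCODE vM21 annotation. On the minus strand are Mcm2 at chr6:88883474-88898780, Mcm3 at chr1:20802968-20820312, Mcm4 at chr16:15623897-15637400, Mcm6 at chr1:128331590-128359664, Mcm7 at chr5:138164583-138172422, Mcm10 at chr2:4989714-5012791 and Gmnn at chr13:24751845-24761923. On the plus strand are Mcm5 at chr8:75109569-75128439, Cdc6 at chr11:98907801-98923940 and Cdt1 at chr8:122568015-122573554. All 10 are protein-coding. Mcm7 overlaps Cops6 and Ap4m1 on the other strand and the microRNA genes Mir25, Mir93 and Mir106b on its own. Of these 5 genes, 2 are in the count tables. Cdt1 overlaps Gm20388 on its own strand. Reads from a stretch shared with a counted gene on the same strand may not have been counted for the members.

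Licensing genes are textbook targets of E2F, the transcription factor family that drives entry into S phase. For that reason the RefSeq promoters, 250 bases before to 50 after the start on build GRCm38.p6, were searched on both strands for 4 forms of the E2F motif, TTTCCCGC, TTTCGCGC, TTTGCCGC and TTTGGCGC. Of 32851 promoters, 744 (2.26%) held at least 1 of them. Of the 9 promoters of members, which belong to 8 genes, 6 did (66.7%), namely 1 each of Mcm3, Mcm5, Mcm6, Mcm7, Cdc6 and Cdt1. Another promoter of Mcm7 held none. Neither Mcm2 nor Mcm10 had these letters in the window. Whether a match bears on the RNA level of a member was not tested. Each stretch with a match is printed 5′ to 3′ on the strand of the gene, with the matched letters in capitals. The start is that of the RefSeq promoter, which can differ from the end of the GENCODE span given above. The Cdc6 and Mcm7 stretches marked as before the start lie inside the GENCODE spans of these genes. In Mcm6 and Mcm5 a match to one strand overlaps a match to the other, and the capitals run through both. A match is a description of the letters.
Mcm6, chr1:128359706-128359955, minus strand, the 250 bases before the start: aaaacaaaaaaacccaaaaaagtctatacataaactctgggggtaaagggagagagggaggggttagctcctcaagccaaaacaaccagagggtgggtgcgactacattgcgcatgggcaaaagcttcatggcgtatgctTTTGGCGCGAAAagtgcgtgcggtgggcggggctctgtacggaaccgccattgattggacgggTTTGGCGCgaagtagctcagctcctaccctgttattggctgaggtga
Mcm5, chr8:75109259-75109508, plus strand, the 250 bases before the start: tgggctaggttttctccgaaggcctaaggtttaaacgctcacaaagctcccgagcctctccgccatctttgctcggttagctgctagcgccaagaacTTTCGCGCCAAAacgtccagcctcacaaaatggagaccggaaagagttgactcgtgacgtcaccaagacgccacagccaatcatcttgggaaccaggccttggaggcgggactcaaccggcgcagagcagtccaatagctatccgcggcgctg
Mcm3, chr1:20820266-20820294, minus strand, just past the start: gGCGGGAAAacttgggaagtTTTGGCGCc
Mcm7, chr5:138172030-138172059, minus strand, before the start: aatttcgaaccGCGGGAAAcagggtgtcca
Mcm7, chr5:138171849-138171878, minus strand, just past the start: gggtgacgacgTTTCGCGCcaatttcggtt
Cdc6, chr11:98908002-98908031, plus strand, before the start: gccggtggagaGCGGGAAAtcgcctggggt
Cdt1, chr8:122568036-122568064, plus strand, just past the start: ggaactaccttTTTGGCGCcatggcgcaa

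Over all LSK cells, none of the 10 licensing genes passed the test between genotypes, and the largest log2 differences were those of Mcm10, Mcm2 and Cdt1. In every library the RNA of Mcm3, Mcm6 and Mcm7 stood highest, Gmnn and Mcm5 next, and Mcm10 and Cdc6 lowest. The log2 difference, knockout over control, was 0.60 (SE 0.23) for Mcm10, 0.46 (SE 0.16) for Mcm2 and 0.42 (SE 0.16) for Cdt1. By the quasi-likelihood test of edgeR, with p-values adjusted over 13779 genes after Benjamini and Hochberg, the adjusted p was 0.19, 0.158 and 0.191.

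Among the helicase subunits, Mcm2 stood at 88.1 and 69.1 CPM in the control and at 108.9 and 112.9 CPM in the knockout libraries, and the groups did not overlap. Mcm4 was read at 107.7 and 87.2 CPM in control and 114.7 and 122.1 CPM in knockout libraries, again without overlap. Mcm3 showed 258.6 and 180.5 CPM against 245.4 and 237.5 CPM, with both knockout libraries between the control libraries. The same order held for Mcm5 (157.3 and 106.0 CPM against 142.2 and 152.8 CPM) and for Mcm6 (232.8 and 198.8 CPM against 222.3 and 220.4 CPM). Mcm7, at 251.4 and 185.3 CPM in control and 225.2 and 261.4 CPM in knockout libraries, also overlapped. For these 4 genes the 2 control libraries lay farther apart than the means of the genotypes. As a share of the RNA of the 6 subunits, Mcm2 took 8.04% and 8.36% in control and 10.3% and 10.2% in knockout libraries, without overlap. The share of Mcm4 was also higher in the knockout (9.83% and 10.5% against 10.8% and 11.03%) and that of Mcm6 lower (21.2% and 24.0% against 21.0% and 19.9%), while those of Mcm3, Mcm5 and Mcm7 overlapped.

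The loaders and their inhibitor were also read without overlap. Cdc6, an ATPase that opens the way for the helicase ring, stood at 34.8 and 29.1 CPM in control and 45.2 and 36.0 CPM in knockout libraries. Cdt1, which brings the ring to Cdc6, gave 55.4 and 42.6 CPM against 67.4 CPM in both knockout libraries. Gmnn gave 150.1 and 130.3 CPM against 157.9 and 169.6 CPM. Mcm10, which acts when the loaded ring is started, gave 37.4 and 22.3 CPM against 45.8 and 47.8 CPM.

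In all, 0 of 10 members were called, against 3.44% of all genes tested in either direction, and 3 had an unadjusted p under 0.05. DESeq2 and the fit with all deposited barcodes also called 0. The log2 difference was positive for 9 members and -0.00 for Mcm6, with a median of 0.21 beside -0.01 over all genes. Both knockout libraries lay above both control libraries for 6 of 10 members, where 29.9% of all genes tested did so. In simulated data of this comparison, 7.46% of genes changed by 0.5 on the log2 scale were found, and 62.7% of those changed by 1, so most differences of the size seen here could be missed. The values depended on the library left out. The log2 difference then ranged from 0.3 to 1 for Mcm10, 0.31 to 0.61 for Mcm2 and 0.26 to 0.6 for Cdt1. In sums over a library, more cells in cycle and more RNA per cell cannot be told apart, and the cells were therefore split by their cell cycle genes.

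**Figure D1:**
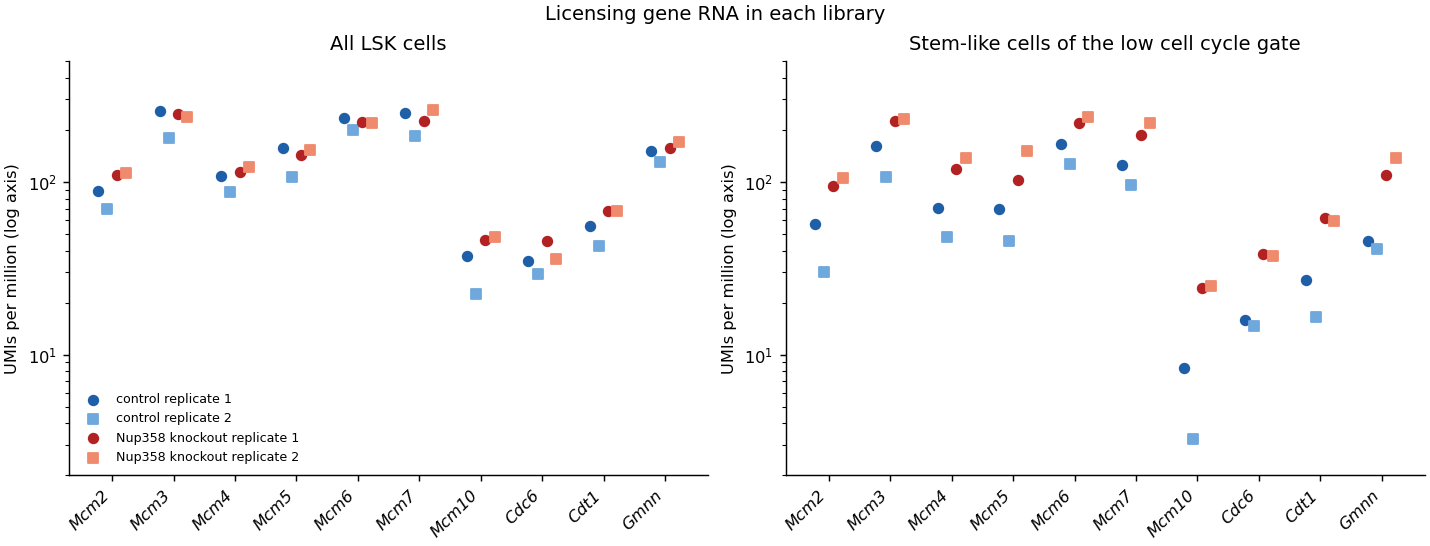
Licensing gene RNA in CPM on a log axis, for all LSK cells (left) and for stem-like cells of the low cell cycle gate (right), with 1 point for each of the 4 libraries. On the left only part of the genes separate by genotype, and on the right the 2 knockout libraries lie above the 2 control libraries for all 10 genes.

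Every cell with at least 2000 UMIs was thinned to 2000 at random, so that depth did not set its gate. A cell was called G2M-high with at least 12 UMIs from 40 G2/M genes, otherwise S-high with at least 6 UMIs from 29 S phase genes, and otherwise low. The lists hold no member. The S list does hold other genes of replication, such as Pcna, Cdc45 and Clspn. The differences of the members between these gates are therefore not independent of how the gates were made. These gates are ranges of a score and not phases, and 703, 113, 176 and 359 cells in the order of the libraries above held 5 or 6 S UMIs, next to the limit.

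All 10 licensing genes rose from low to S-high cells, where 9.71% of all 12163 genes tested were called higher. The log2 difference ran from 0.66 for Mcm4 and Mcm6 to 1.19 for Mcm10, with a median of 0.80 beside -0.01 over all genes. Mcm10 went from 19.8, 8.32, 33.8 and 34.9 CPM in low cells (control replicates 1 and 2, then knockout replicates 1 and 2) to 55.9, 37.5, 59.3 and 57.7 CPM in S-high cells, a difference of 1.19 (SE 0.21, adjusted p = 0.00462, edgeR). Cdc6 went from 25.7, 16.3, 41.7 and 40.7 CPM to 62.4, 59.0, 71.9 and 55.9 CPM, a difference of 1.04 (SE 0.19, adjusted p = 0.00529). In each of the 4 libraries the S-high cells stood above the low cells for both genes. Gmnn differed by 0.98 (SE 0.19), Cdt1 and Mcm5 by 0.85 (SE 0.11 and 0.13), Mcm7 by 0.76 (SE 0.13), Mcm2 by 0.72 (SE 0.10) and Mcm3 by 0.68 (SE 0.12).

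From S-high to G2M-high cells 8 members fell, against 7.32% of all genes tested called lower. Cdc6 fell by 1.19 on the log2 scale (SE 0.18, adjusted p = 0.00236, edgeR), to 26.5, 24.5, 32.3 and 26.6 CPM. Mcm2 fell by 0.95 (SE 0.10, adjusted p = 0.000325) and Mcm6 by 0.85 (SE 0.11, adjusted p = 0.000667). Cdt1, Mcm4, Mcm3, Mcm5 and Mcm7 fell by 0.78, 0.77, 0.73, 0.69 and 0.53. The exceptions were Mcm10 (-0.38, SE 0.20, adjusted p = 0.218) and Gmnn (-0.40, SE 0.18, adjusted p = 0.163), the factors that act after loading or against it. These 2 were also the only members called higher in G2M-high than in low cells, where 14.4% of all genes were called higher. The difference there was 0.81 (SE 0.21, adjusted p = 0.0137) for Mcm10 and 0.57 (SE 0.18, adjusted p = 0.0375) for Gmnn. Leaving out control replicate 1 ended both of these calls, and it took the members called from low to S-high from 10 to 4, all with the same direction. Without control replicate 2 or without knockout replicate 1, Gmnn lost its call between G2M-high and low cells.

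The level of Gmnn per level of Cdt1, the inhibitor per loader, was read as a ratio of CPM. It was 1.96, 2.22, 2.12 and 2.57 in low cells and 3.42, 4.47, 2.50 and 2.66 in G2M-high cells of the same libraries. The ratio was thus higher in G2M-high than in low cells in 4 of 4 libraries, and in G2M-high cells both control libraries lay above both knockout libraries. This ratio was not tested.

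**Figure D2:**
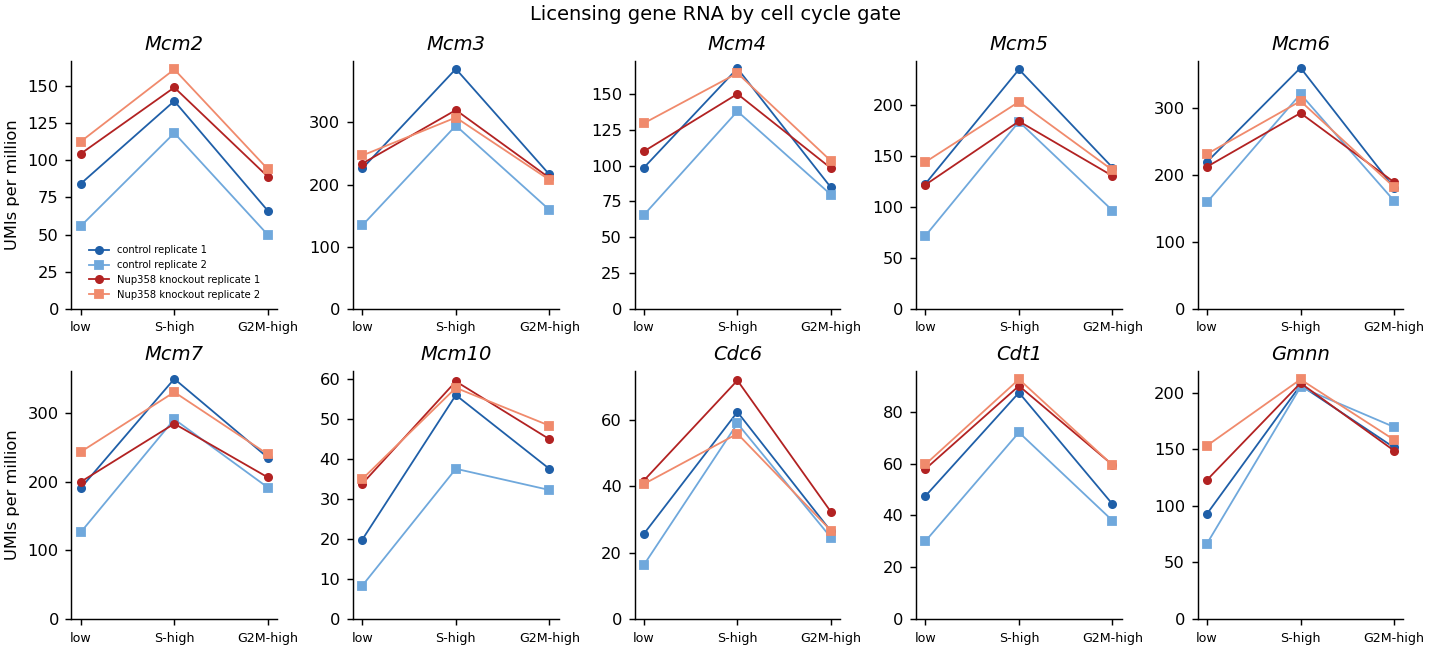
Licensing gene RNA in CPM (linear axis from 0) in low, S-high and G2M-high cells, with 1 panel for each gene and 1 line for each library. All 10 genes peak in S-high cells in every library, Mcm10 and Gmnn stay high in G2M-high cells, and the libraries lie farthest apart in the low cells.

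Progenitors were gated by lineage genes on the same thinned cells. A cell entered a gate with at least 2 UMIs from at least 2 genes of a list, and the list with the most UMIs won. Genes that the gates did not use were checked. Mpo in the neutrophil-primed gate stood 6.31 to 13.4 times, Ctss in the monocyte- and dendritic-primed gate 3.18 to 8.28 times and Flt3 in the lymphoid-primed gate 3.24 to 3.50 times as high as in the other cells. For the stem-like gate the check gene Esam stood 4.26 and 4.25 times as high in control but 2.14 and 2.02 times in knockout libraries. The stem-like gate held 2063, 490, 439 and 997 cells and the neutrophil-primed gate 3441, 299, 304 and 395. Of all cells that met a gate, 7.96% and 8.36% in control but 19.0% and 22.2% in knockout libraries held only the minimum of 2 UMIs. B-lineage and basophil- and mast-primed cells had fewer than 20 cells in a library and were not fitted.

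Between gates the log2 differences of licensing RNA were at most 0.35 in size. In the neutrophil-primed gate 6 members were called higher than the mean of the other gates, where 21.6% of all 10852 genes tested were called higher. They were Cdc6 (0.33, SE 0.09, adjusted p = 0.00294, edgeR), Cdt1 (0.30), Gmnn (0.29), Mcm5 (0.27), Mcm10 (0.25) and Mcm7 (0.22). All 10 differences were positive, with a median of 0.23 beside -0.02 over all genes. Cdc6 read 35.9, 34.0, 50.5 and 41.0 CPM there. The alternatives called 3 to 9 members. With all deposited barcodes 4 were called, without Mcm7 and Mcm10, without control replicate 1 there were 3 calls, and in cells thinned to 1000 UMIs there were 9.

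In the stem-like gate 2 members were called lower than the mean of the others, where 12.1% of all genes were. Mcm10 read 28.4, 14.8, 43.8 and 42.8 CPM and differed by -0.35 (SE 0.10, adjusted p = 0.00823, edgeR). Gmnn read 122.2, 82.1, 154.5 and 168.2 CPM and differed by -0.26 (SE 0.10, adjusted p = 0.0484). The lowest value of both genes was in control replicate 2, and neither call held when either control library was left out. These differences average over the genotypes. Gmnn in the stem-like gate was below each of the other gates in both control libraries, whereas in knockout libraries it lay among them, for example with 149.8 and 158.3 CPM in lymphoid-primed cells. All 10 differences were negative, with a median of -0.15 beside 0.01 over all genes. The setting of the gate moved the count of members called, from 1 in DESeq2 to 4 with all deposited barcodes and 10 when cells were thinned to 1000 UMIs.

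No member was called in the 4 remaining gates by edgeR or by DESeq2. Of all genes, 11.4% were called in either direction in the lymphoid-primed gate, 29.8% in the megakaryocyte- and erythroid-primed gate, 11% in the monocyte- and dendritic-primed gate and 1.76% in cells without a gate. At an unadjusted p under 0.05 there was 1 member in the lymphoid-primed gate and 0 in the other 3. The member medians were -0.02, -0.09, -0.03 and 0.09 in the same order. Mcm6 had its highest mean level, 242.3 ± 13.7 CPM (SD, n = 4) in lymphoid-primed cells, and its mean was lowest, at 205.3 ± 30.7 CPM, in the megakaryocyte- and erythroid-primed gate, a range within the spread between libraries.

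**Figure D3:**
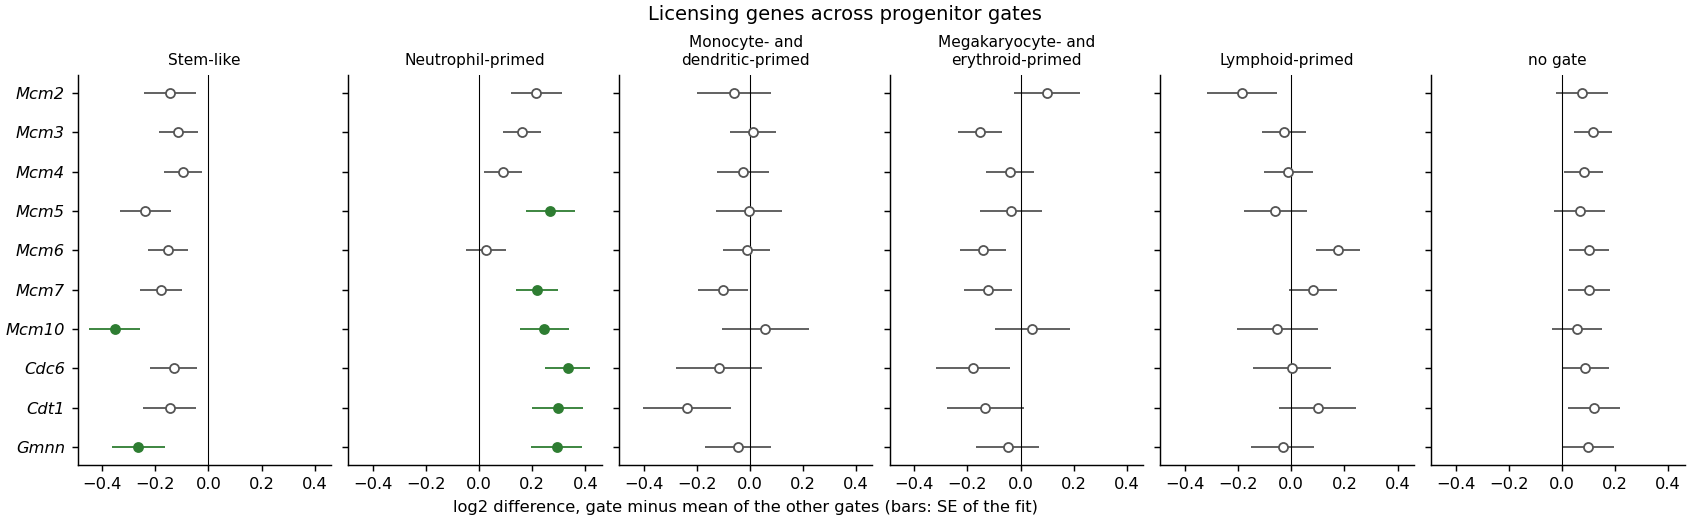
Log2 difference of each licensing gene between a progenitor gate and the mean of the other gates, with bars for the standard error of the fit over 4 libraries. Filled points passed an adjusted p of 0.05, which 6 genes did in the neutrophil-primed gate (higher) and 2 in the stem-like gate (lower).

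Between genotypes, the stem-like gate was the one in which members were called. Mcm2, Mcm10 and Cdt1 rose there, 3 of 10 members, against 2.75% of all genes tested called higher. Mcm2 read 79.1 and 47.9 CPM in control and 111.6 and 117.0 CPM in knockout libraries, a log2 difference of 0.87 (SE 0.21, adjusted p = 0.0386, edgeR). Mcm10 differed by 1.01 (SE 0.24, adjusted p = 0.0394). Cdt1, with 47.8 and 29.9 CPM against 67.7 and 67.2 CPM, differed by 0.82 (SE 0.20, adjusted p = 0.0419). The member median was 0.56 beside -0.00 over all genes, and both knockout libraries lay above both control libraries for 9 of 10 members, where 26.4% of all genes did so. Only Mcm3 overlapped, with 246.9 CPM in control replicate 1 and 245.5 CPM in knockout replicate 1. None of these calls held without knockout replicate 1, and only that of Mcm10 held without knockout replicate 2. With each library left out in turn, the log2 difference ranged from 0.60 to 1.24 for Mcm2. For Mcm10 the range was 0.68 to 1.53 and for Cdt1 0.56 to 1.16. The cells of this gate also differed in make-up. Low cells were 56.5% and 74.3% of it in control but 38.0% and 27.4% in knockout libraries. The 12 marker genes of the gate together read 2632 and 3077 CPM in control and 1512 and 1555 CPM in knockout libraries. Of these genes 9 were lower and 2 higher in both knockout libraries. The part of this in the rise of the members was not tested.

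In the other gates 0 members were called, in edgeR and in DESeq2. Both knockout libraries nevertheless lay above both control libraries for 10 of 10 members in the lymphoid-primed gate, against 22.8% of all genes. This held for 5 members in the neutrophil-primed gate (28.7% of all genes), 5 in cells without a gate (24.4%), 1 in the monocyte- and dendritic-primed gate (25.5%) and 0 in the megakaryocyte- and erythroid-primed gate (19.7%). In that last gate 4 members separated the other way, with Mcm5, Mcm6, Mcm7 and Gmnn lower in both knockout libraries. Mcm6, for example, read 244.3 and 214.1 CPM in control and 188.5 and 174.5 CPM in knockout libraries. Mcm3 and Mcm6 were lower in both knockout libraries of the monocyte- and dendritic-primed gate. How many of all genes separated downward was not computed. The share of all genes called in either direction was 4% in the neutrophil-primed, 0.932% in the lymphoid-primed, 0.702% in the megakaryocyte- and erythroid-primed and 3.1% in the monocyte- and dendritic-primed gate, and 2.08% in cells without a gate. At an unadjusted p under 0.05 there were 2, 2, 0, 0 and 3 members in that order. The member medians were 0.13, 0.38, -0.26, -0.08 and 0.19. In lymphoid-primed cells Mcm10 read 25.1 and 26.0 CPM in control and 46.0 and 48.3 CPM in knockout libraries, a difference of 0.88 (SE 0.27, adjusted p = 0.139). The smallest of these gates held 21 to 40 cells in a library, and the SE of a member there was up to 0.31.

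Split by cell cycle genes instead, Mcm10, Cdc6 and Gmnn rose in low cells of the knockout, 3 of 10 members against 3.61% of all genes called higher. The log2 difference was 1.31 (SE 0.32, adjusted p = 0.0483, edgeR) for Mcm10, 1.01 (SE 0.21, adjusted p = 0.0308) for Cdc6 and 0.83 (SE 0.19, adjusted p = 0.0427) for Gmnn. All 10 differences were positive, with a median of 0.62 beside -0.00 over all genes. The low cells were not alike in their cell cycle genes. They held on average 2.41 and 1.96 UMIs of the S list in control and 2.76 and 3.07 in knockout libraries. Of the G2/M list they held 3.19 and 2.74 against 4.55 and 5.14. The part of this in the rise of the members was not tested. None of the 3 calls held without knockout replicate 2, and only that of Mcm10 held without knockout replicate 1. With each library left out in turn, the log2 difference ranged from 0.87 to 2.03 for Mcm10. For Cdc6 the range was 0.76 to 1.32 and for Gmnn 0.65 to 1.04. In S-high cells 0 members were called (4.96% of all genes in either direction) and the median was -0.06. In G2M-high cells 0 members were called (3.17% of all genes) and the median was 0.13. At an unadjusted p under 0.05 there were 0 members in S-high and 3 in G2M-high cells. Members were called in S-high and in G2M-high cells without control replicate 1, a fit that leaves 1 control library. No share of all genes stands beside these calls.

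The stem-like and the neutrophil-primed gate were then split by cell cycle gate, a step added after these results were seen. Among stem-like cells of the low gate, all 10 licensing genes rose in the knockout, against 7.68% of all 10652 genes tested called higher. The member median was 1.22 on the log2 scale beside -0.00 over all genes. In 10 of 10 members both knockout libraries lay above both control libraries, which 25.6% of all genes did. The sums came from 1165 and 364 control and 167 and 273 knockout cells.

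Among the factors around the helicase the differences were largest. Mcm10 read 8.38 and 3.23 CPM in control and 24.2 and 25.0 CPM in knockout libraries, from 36, 12, 58 and 78 UMIs. This was a 4.31-fold difference (log2 2.11, SE 0.33, adjusted p = 0.000965, edgeR). Gmnn went from 45.2 and 40.7 CPM to 109.5 and 137.6 CPM, 2.98-fold (log2 1.57, SE 0.19, adjusted p = 0.000159). Both knockout libraries thus held more RNA of the starting factor and of the loading inhibitor than either control library. Cdt1, the partner that geminin blocks, read 27.0 and 16.4 CPM against 61.8 and 59.3 CPM, 2.88-fold (log2 1.53, SE 0.22, adjusted p = 0.000633). Cdc6 read 15.8 and 14.5 CPM against 38.4 and 37.2 CPM, 2.57-fold (log2 1.36, SE 0.22, adjusted p = 0.00111). For Cdc6 the libraries of a genotype lay within a few CPM of each other.

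The helicase subunits rose by smaller factors. Mcm2 read 57.3 and 30.2 CPM in control and 94.9 and 104.5 CPM in knockout libraries, 2.37-fold (log2 1.24, SE 0.23, adjusted p = 0.00303, edgeR). Mcm5 read 70.1 and 45.2 CPM against 102.8 and 151.7 CPM, 2.30-fold (log2 1.20, SE 0.22, adjusted p = 0.00314). Mcm4 read 70.5 and 47.7 CPM against 118.3 and 138.2 CPM, 2.25-fold (log2 1.17, SE 0.20, adjusted p = 0.00158). Control replicate 2 was the lowest library for each of them. Mcm7 read 125.0 and 95.6 CPM against 187.6 and 218.7 CPM, 1.91-fold (log2 0.93, SE 0.18, adjusted p = 0.00395). Mcm3 read 160.8 and 107.2 CPM against 225.2 and 231.5 CPM, 1.77-fold (log2 0.82, SE 0.19, adjusted p = 0.0104). Mcm6 had the smallest difference, with 164.8 and 126.6 CPM against 219.8 and 237.9 CPM, 1.63-fold (log2 0.70, SE 0.18, adjusted p = 0.0164). Ranbp2 in the same cells differed by 0.32 (SE 0.18, adjusted p = 0.242).

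All 10 members were also called by DESeq2, with all deposited barcodes, with a stem list that leaves out Ifitm1 and with another random draw of the thinned UMIs. The low stem-like cells of that draw shared 879, 263, 77 and 122 cells with the first, out of 1165, 364, 167 and 273. The list without Ifitm1 left 463 and 183 control and 63 and 122 knockout cells. With each library left out in turn, all 10 differences stayed positive, from 0.59 to 0.83 for Mcm6 and from 1.66 to 2.89 for Mcm10. Mcm6 did not keep its call without knockout replicate 1, nor did Mcm3, Mcm6 and Mcm7 without knockout replicate 2.

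The cells compared were not alike in other respects. Low stem-like cells held on average 2.00 and 1.69 UMIs of the S list in control and 2.83 and 2.99 in knockout libraries, and 2.27 and 2.15 against 3.89 and 4.38 of the G2/M list. Mki67, a marker of cycling cells that is on the G2/M list, read 28.6 and 10.0 CPM against 67.3 and 85.0 CPM. The 12 genes of the stem list together read 3130 and 3442 CPM in control and 1792 and 1799 CPM in knockout libraries, of which Ifitm1 alone made up 2186 and 2501 against 1157 and 1190 CPM. Of the 12, 8 were lower in both knockout libraries, among them Hlf and Mecom, and 2 were higher in both, Slamf1 (8.61 and 7.54 against 14.6 and 15.7 CPM) and Ctnnal1. The check gene Esam, at 43.3 and 46.6 against 49.3 and 55.8 CPM, was also higher in both. The part of these differences in the rise of the licensing genes was not tested. The comparison was repeated with a stricter low gate of at most 2 S and 3 G2/M UMIs, which left 650 and 213 control and 47 and 68 knockout cells with 1.09 and 0.90 against 1.04 and 1.26 S UMIs, and 1.52 and 1.37 against 1.74 and 1.43 G2/M UMIs. There 0 of the 9 members tested were called, 7 had an unadjusted p under 0.05, all 9 differences were positive and their median was 0.89. No share of all genes stands beside these counts. Cdt1 differed by 1.51 (adjusted p = 0.0661, edgeR) and Mcm7 by 0.14 (adjusted p = 0.891), and Mcm10 was too low to be tested.

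**Figure D4:**
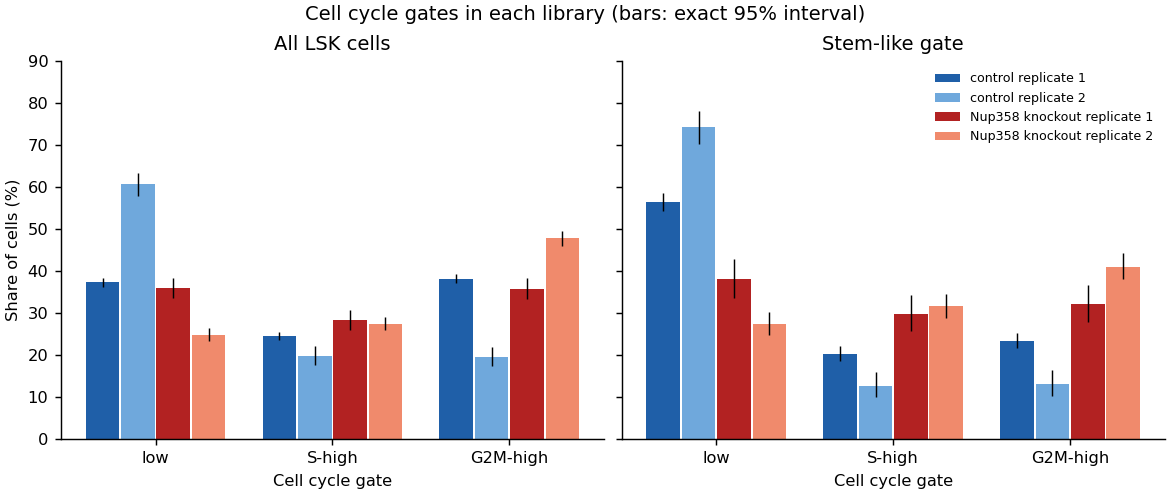
Share of cells in each cell cycle gate in percent, for all LSK cells (left) and stem-like cells (right), with 1 bar for each library and the exact 95% interval, which covers counting error only. In the stem-like gate the low share is 56.5% and 74.3% in control and 38.0% and 27.4% in knockout libraries.

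The shares of the cell cycle gates are given as values, since the exact permutation test of 2 against 2 libraries cannot pass the threshold. Low cells made up 37.3% and 60.6% of control and 35.9% and 24.8% of knockout LSK cells, and the knockout mean differed by -18.6 percentage points (p = 0.333 in a two-sided exact permutation test, the smallest p this design allows). The share of S-high cells was 24.5% and 19.8% against 28.3% and 27.4% (5.69 points, exact p = 0.333), and that of G2M-high cells 38.2% and 19.6% against 35.8% and 47.8% (12.9 points, exact p = 0.667). The shares of low and of S-high cells did not overlap between genotypes, and those of G2M-high cells did. Without control replicate 2 the difference in low cells was -6.95 points. In the alternatives only the S-high shares stayed apart throughout. With a gate minimum 1 UMI higher the low shares overlapped (42.9% and 65.8% in control against 43.9% and 33.1% in knockout libraries). Without thinning they also overlapped. With all deposited barcodes the G2M-high shares did not overlap (38.0% and 32.4% against 38.5% and 48.3%). Control replicate 2 then held 46.7% low cells. The shares within the stem-like gate were not tested.

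No member passed the test between genotypes in S-high or G2M-high stem-like cells. In S-high stem-like cells 0 members were called (1.86% of all genes in either direction), 0 had an unadjusted p under 0.05, and the median was -0.01. Gmnn read 190.1 and 160.9 CPM in control and 213.0 and 210.4 CPM in knockout libraries there. In G2M-high stem-like cells 0 were called (2.25% of all genes), 2 had an unadjusted p under 0.05, and the median was 0.18. The largest difference was that of Mcm2 (0.77, SE 0.17, adjusted p = 0.0508, edgeR). In low neutrophil-primed cells Mcm10 was called higher, 1 of 10 members against 1.91% of all genes, with 29.2 and 16.7 CPM in control and 43.0 and 54.5 CPM in knockout libraries (log2 1.07, SE 0.25, adjusted p = 0.0292), and the median was 0.28.

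The differences between these effects were tested as interaction terms with the library as a block. Among stem-like cells the genotype effect differed between cell cycle gates for 10 of 10 members, where 9.81% of all genes differed. The adjusted p-values ran from 5.30e-15 for Gmnn to 5.48e-05 for Mcm2 (edgeR). The members kept this difference with any 1 library left out, while the share of all genes that differed fell. Among low cells it differed between the stem-like and the neutrophil-primed gate for 9 of 10 members, where 7% of all genes differed, the exception being Cdc6 (adjusted p = 0.147). With any 1 library left out fewer members were called, and the share of all genes that differed fell too. Over all LSK cells the genotype effect differed between cell cycle gates for 10 of 10 members (20.1% of all genes) and between progenitor gates for 8 of 10 (16.1% of all genes), not for Mcm3 and Mcm4. These 2 counts were not stable. Both fell when either knockout library was left out, as did the share of all genes that differed. The sums of a library share its cells' RNA pool, and the spread these terms use is that within 4 libraries.

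**Figure D5:**
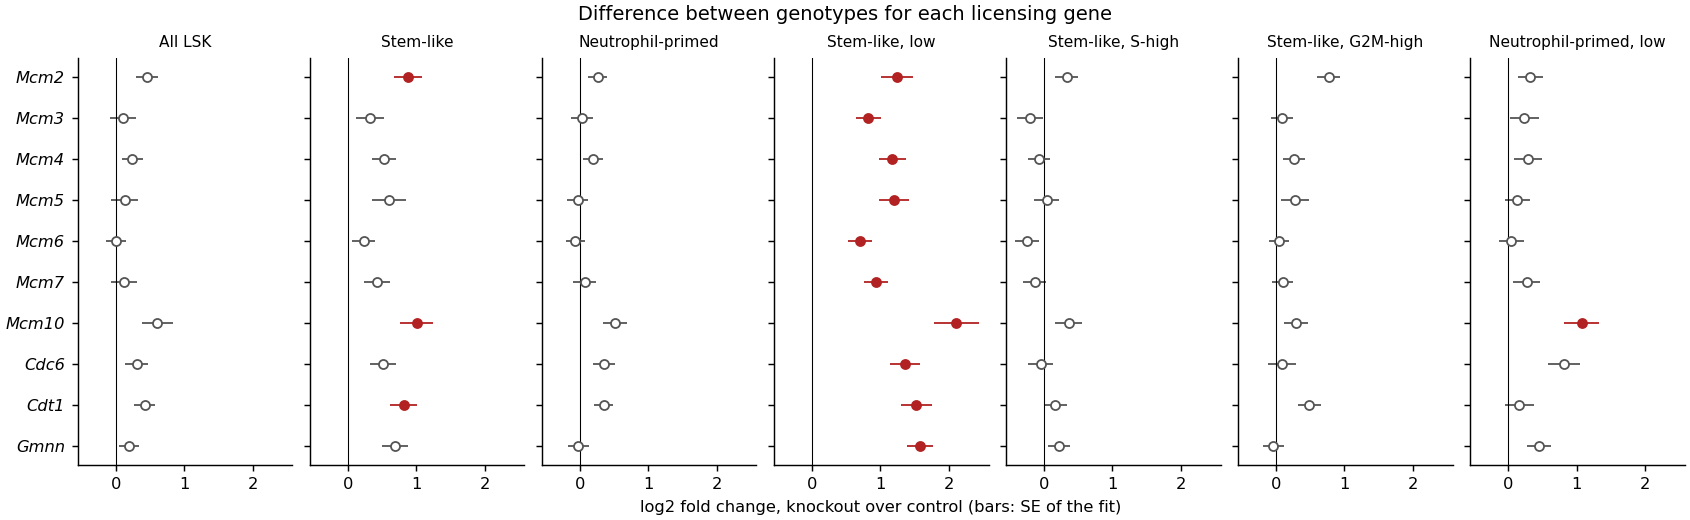
Log2 fold change of each licensing gene, knockout over control, in 7 sets of cells, with bars for the standard error of the fit (2 against 2 libraries). Filled points passed an adjusted p of 0.05, which all 10 genes did in stem-like low cells, 3 in the stem-like gate, 1 in low neutrophil-primed cells and none in the other 4 sets.

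Other genes of replication were read as lists. Over all LSK cells none passed the test in the 5 lists, with list medians of 0.05 for origin recognition (7 genes, the complex that marks origins), 0.16 for helicase loading partners and turnover (16 genes), 0.21 for helicase activation (13 genes, the factors that turn the loaded ring into a running fork), 0.11 for the replisome (25 genes) and 0.22 for the E2F and retinoblastoma list (8 genes). This last list holds E2f1, E2f2, E2f3, E2f7 and E2f8 and the retinoblastoma genes Rb1, Rbl1 and Rbl2. In stem-like low cells, where 7.68% of all genes were called higher, 11 of 13 genes of helicase activation rose, with a median of 1.32. Of the replisome 17 of 25 genes rose, with a median of 0.88. Without the genes that the S and G2/M lists also hold, these counts were 9 of 11 and 10 of 16. Of the loading partners 7 of the 15 tested rose, of the E2F and retinoblastoma list 5 of 8 and of origin recognition 2 of 7, with medians of 0.76, 0.90 and 0.25. None fell in any of the 5 lists in these cells. From low to S-high cells of all LSK, genes on the S or G2/M list are bound to the gates. Without them 16 of 16 replisome genes, 10 of 11 activation genes and 4 of 7 origin recognition genes rose, beside the 9.71% of all genes given above.

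Across the 24 sums of 4 libraries by 6 gates, the genes outside the members most like their mean were Mybl2 (Pearson's r 0.885), Hnrnpab (0.857), Uhrf1 (0.852), Ipo5 (0.851) and Clspn (0.851). Uhrf1 and Clspn are on the S list, and Clspn, the fork protein claspin, is also a replisome gene. Among the members themselves, the correlation of a gene with the mean of the other 9 was highest for Mcm5 (0.902) and lowest for Mcm6 (0.502), the subunit with the smallest difference between genotypes in stem-like low cells. The points share libraries and depth, and the values are descriptions.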

How the data were processed

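The members and gene lists were chosen with earlier results of these data known. The authors sorted LSK cells, prepared droplet libraries of 3′ transcript ends (kit v3.1) and, by the submitters' processing notes, used Cell Ranger 3.1 and mm10 (GRCm38). They deposited whole-number UMI counts for each gene and cell barcode, without normalization. Of the 27998 genes, 27645 (98.7%) matched GENCODE vM21 by identifier.

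A cell needed at least 200 genes and a mitochondrial share of its UMIs of 10% or less, a filter that took out 269 barcodes, and copied barcodes were left out. Gates used cells thinned to 2000 UMIs, which left 7576, 1191, 1503 and 3210 cells, and ties between gates were left out. No doublet caller was run. Gates are ranges of marker counts and not the study's cell types. All UMIs of gated cells were summed per library, and gates needed 20 cells in every library. The megakaryocyte- and erythroid-primed gates were joined after the cell counts were seen. Sums were scaled by the trimmed mean of M-values, filtered with filterByExpr and tested with edgeR 4.0.16 (quasi-likelihood, limma 3.58.1, R 4.3.3) with Benjamini-Hochberg adjustment over all genes tested, at 0.05. Gates and phases were compared with the library as a block. Counts of members at an unadjusted p under 0.05 are given without the share of all genes. DESeq2 1.42.0, the study's tool, was an alternative. The scripts were tested on simulated data with known changes: of genes changed by 1 on the log2 scale, 59.7% were found in the stem-like gate, and for the interaction of genotype and cell cycle gate 5.97%. For the interaction the simulated spread was set without the library block that the fit uses. The 5.97% therefore need not hold for the real data. Shares were compared by an exact permutation test, with exact Clopper-Pearson intervals that cover counting error only (Python 3.11.15, scipy 1.17.1).

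Named genes were the 10 members, Ranbp2, the check genes of the gates, any gene of the replication lists past the threshold over all LSK cells (there was none), and the 5 genes most like the members' mean. Mki67 and the genes of the stem list were named after their values were seen. The split of gates by cell cycle gate, the interaction terms, the stricter low gate, the stem list without Ifitm1 and the other random draw were also added after the data were seen.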

Additional observations from a re-analysis of the deposited data

Results flagged for a closer look

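The results below were picked out because the effect of the genotype differed between sets of cells in an interaction test. Among stem-like cells it differed between the cell cycle gates for all 10 members, where 9.81% of all genes differed. The adjusted p-values (edgeR's quasi-likelihood test, Benjamini-Hochberg) were 5.30e-15 for Gmnn, 5.33e-12 for Mcm7, 1.81e-11 for Mcm3, 2.89e-10 for Mcm6, 4.31e-10 for Mcm4, 1.67e-09 for Mcm5, 2.47e-07 for Cdt1, 1.04e-06 for Cdc6, 2.94e-06 for Mcm10 and 5.48e-05 for Mcm2. The log2 differences between genotypes in low, S-high and G2M-high stem-like cells were 1.57, 0.22 and -0.04 for Gmnn, and 0.93, -0.14 and 0.09 for Mcm7. This split was added after the data were seen. Low stem-like cells held 2.00 and 1.69 S list UMIs in control but 2.83 and 2.99 in knockout libraries. Their G2/M list UMIs were 2.27 and 2.15 against 3.89 and 4.38. The interaction was not fitted with the stricter low gate, in which no member was called between genotypes.

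Among low cells the genotype effect differed between the stem-like and the neutrophil-primed gate for 9 members, where 7% of all genes differed. The adjusted p-values (edgeR) were 3.50e-09 for Gmnn, 3.98e-08 for Mcm5, 1.44e-07 for Cdt1, 3.79e-06 for Mcm4, 1.81e-05 for Mcm6, 2.25e-05 for Mcm7, 2.67e-05 for Mcm2, 0.000165 for Mcm3 and 0.025 for Mcm10. For Cdt1 the log2 difference was 1.53 in the stem-like and 0.16 in the neutrophil-primed low cells. The limits given above for the low stem-like cells hold here too.

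Over all LSK cells it differed between cell cycle gates for 10 members (20.1% of all genes) and between progenitor gates for 8 (16.1% of all genes). Both counts fell when either knockout library was left out, as did the share of all genes that differed.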

How the results depend on the processing

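The replicate numbers did not pair the samples: the correlation of replicate 1 minus replicate 2 between genotypes was -0.06 over 13779 genes. With the replicate number as a block, 1 member was called over all LSK cells (Mcm10), 5 instead of 3 in low cells, and no other count of members moved by over 1.5 times. Without a filter on low counts there was 1 call over all LSK cells, 7 in the stem-like gate and 1 in cells without a gate. In low cells a gate minimum 1 UMI higher gave 0 calls and thinning to 1000 UMIs gave 1. For levels in the stem-like gate, DESeq2 called 1 member, all deposited barcodes 4, the higher minimum 8 and thinning to 1000 UMIs 10. The stricter low gate called 0 in stem-like cells. Mcm6 over all LSK cells went from -0.00 to 0.00 without a filter, 0.01 with RLE size factors and in DESeq2, and 0.09 in limma on mean CPM per cell. At the higher minimum the megakaryocyte- and erythroid-primed and the monocyte- and dendritic-primed gates had too few cells to be fitted, and when thinned to 1000 UMIs the lymphoid-primed gate as well.

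With each library left out, members called ranged from 0 to 3 over all LSK cells, 0 to 9 in the stem-like gate, 0 to 1 in the neutrophil-primed gate and 0 to 2 in cells without a gate. They ranged from 0 to 10 in low, 0 to 1 in S-high, 0 to 2 in G2M-high and 7 to 10 in low stem-like cells. The calls of the neutrophil-primed gate, the cells without a gate, the S-high and the G2M-high cells came without control replicate 1. For levels the ranges were 4 to 10 from low to S-high, 6 to 9 from S-high to G2M-high, 0 to 3 from low to G2M-high, 3 to 5 in the neutrophil-primed gate, 0 to 5 in the stem-like gate and 0 to 2 in the megakaryocyte- and erythroid-primed gate. For the interaction terms they were 1 to 10 (cell cycle gates), 0 to 8 (progenitor gates), 10 to 10 (cell cycle gates of stem-like cells) and 7 to 8 (stem-like against neutrophil-primed low cells). Over all LSK cells Mcm3 ranged from -0.12 to 0.35, Mcm5 from -0.11 to 0.41, Mcm6 from -0.09 to 0.09 and Mcm7 from -0.07 to 0.33. The counts of members in this paragraph have no share of all genes beside them. The causes were not tested.

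Over the alternatives run, 372 to 2890 of all genes were called over all LSK cells, 289 to 3241 in the stem-like gate, 74 to 3009 in low cells and 118 to 2308 in low stem-like cells, against 474, 875, 959 and 1498. With 2 libraries a group, changes under 1 on the log2 scale are mostly missed over all LSK cells.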
